A study of Mus musculus with 12 samples.

Results

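The IFIT family (interferon-induced proteins with tetratricopeptide repeats) was followed through the 4 conditions of a bulk RNA sequencing experiment on M2-like bone marrow-derived macrophages (BMDM). Its members were the 6 rows of the count matrix with the gene symbols Ifit1, Ifit1bl1, Ifit1bl2, Ifit2, Ifit3 and Ifit3b, out of 56748 genes listed. All 6 were among the 15033 genes that passed the filter on low counts and were tested.

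BMDM from adult female C57BL/6J mice were grown with M-CSF at 20 ng/mL and polarized with IL4 at 10 ng/mL for 48 hours, which all 4 conditions share. For 72 hours they then received plain medium (untreated control), recombinant IFNβ (rIFNβ), or medium from cultures of YUMM5.2 Ifnb1eGFP cells (Ifnb1eGFP supernatant) or YUMM5.2 eGFP cells (eGFP supernatant). YUMM5.2 cells come from a murine melanoma, and both derivatives were made with a lentiviral vector from which Dox induces either Ifnb1 together with eGFP, or eGFP alone. IFNβ was used at 1500 pg/mL in the Ifnb1eGFP supernatant and at an equivalent concentration as rIFNβ, and the dilution of the eGFP supernatant followed that of its Ifnb1eGFP counterpart. Each condition had 3 libraries, described as 3 mice per condition. Donor cells had received Dox at 1 µg/mL for 72 hours, so that supernatant was a mixture of everything these cells released, with any remaining Dox, whereas rIFNβ was a single protein.

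IFIT proteins are antiviral effectors whose genes are among those most strongly induced by type I interferon. IFNβ binds the receptor formed by Ifnar1 and Ifnar2, the kinases Jak1 and Tyk2 signal to the complex ISGF3, which includes Stat2 and Irf9 and binds interferon-stimulated response elements in promoters. IFIT1 binds RNA whose cap lacks 2′-O methylation, a mark that host messenger RNA carries and many viral RNAs lack. Human IFIT2 and IFIT3 bind IFIT1 or one another, and IFIT proteins can also block translation through the initiation factor eIF3. In the mouse the family was enlarged by gene duplication, which gave Ifit3b beside Ifit3, and Ifit1bl1 and Ifit1bl2 beside Ifit1.

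The members lie side by side on chromosome 19, in a span of 112 kb (GRCm39, chr19:34527932-34639833, GENCODE M39). Ifit2 (chr19:34527932-34554524), Ifit3 (chr19:34560899-34566443), Ifit3b (chr19:34585328-34590801) and Ifit1 (chr19:34618271-34632174) lie on the plus strand. Ifit1bl1 (chr19:34570291-34579356) and Ifit1bl2 (chr19:34594449-34639833) lie on the minus strand. Ifit1 lies within the bounds of Ifit1bl2 on the opposite strand, but the annotated exons of these genes share 0 bases. Ifit3 and Ifit3b are near-copies: 47.8% of the 50-base stretches of Ifit3b transcripts also occur in Ifit3 transcripts. Between Ifit1 and Ifit1bl1 this share was 0.727% of the stretches of Ifit1bl1.

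Promoter sequences were read from the RefSeq windows of the mouse build GRCm38.p6, which run from 250 bases before to 50 bases after each annotated start, and all 6 members had at least 1 window. The windows were searched on both strands for GAAA, any 2 bases and GAAA again, a spaced repeat of the core of the interferon-stimulated response element, which reads TTTC, any 2 bases and TTTC on the other strand. It was present at least once in 3.44% of all 32851 windows and at least 2 times in 0.225% of them. The windows of Ifit3, Ifit3b and Ifit1 each held 2 matches, and each of the windows of Ifit1bl1 held 1. The stretches around the matches are shown because all 6 members rose with IFNβ. Matches are in capitals, and each line runs 5′ to 3′ on the strand of the gene.
Ifit3, chr19:34583338-34583451, plus strand: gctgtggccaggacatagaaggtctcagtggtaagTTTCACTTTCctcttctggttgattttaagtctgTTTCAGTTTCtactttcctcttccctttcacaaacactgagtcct
Ifit3b, chr19:34607734-34607847, plus strand: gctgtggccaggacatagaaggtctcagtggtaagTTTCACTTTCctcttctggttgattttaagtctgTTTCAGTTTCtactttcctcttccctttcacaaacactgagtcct
Ifit1, chr19:34640750-34640848, plus strand: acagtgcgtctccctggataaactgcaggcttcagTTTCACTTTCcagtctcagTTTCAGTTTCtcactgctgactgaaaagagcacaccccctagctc
Ifit1bl1, first window, chr19:34599428-34599485, minus strand: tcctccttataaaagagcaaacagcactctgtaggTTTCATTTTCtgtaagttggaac
Ifit1bl1, second window, chr19:34602028-34602107, minus strand: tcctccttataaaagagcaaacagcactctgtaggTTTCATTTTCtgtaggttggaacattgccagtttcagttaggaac

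The stretches of Ifit3 and Ifit3b were identical over all 114 bases, although their matches began 156 and 122 bases before the annotated start of Ifit3 and 188 and 154 bases before that of Ifit3b. In Ifit1 the matches began 104 and 85 bases before the start. The second of the windows of Ifit1bl2 held the same stretch read on the other strand, so this pair shares its 2 matches. In the RefSeq annotation these starts of Ifit1 and Ifit1bl2 lie 146 bases apart and point away from each other. The GENCODE M39 bounds given above differ, since there the outermost start of Ifit1bl2 lies beyond the far end of Ifit1. The other window of Ifit1bl2 and both windows of Ifit2 held 0 matches, which says only that these letters are not in those windows. The matches are a description of sequence, and binding was not measured.

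The 12 libraries held between 31526034 and 45348457 counts. Levels are given as CPM, the counts scaled to a library total of 1000000 after TMM factors were applied. The listed macrophage markers (Adgre1, Csf1r, Cd68, Itgam, Mertk and Lyz2) summed to between 8515 and 18394 CPM, with 0 of 6 genes at 0. The 5 melanoma markers of the list summed to at most 0.809 CPM and the 5 T and B cell markers to at most 0.354 CPM. One library stood apart in the family: the second replicate of eGFP supernatant held IFIT levels well above the other eGFP libraries, and the tests of the members against eGFP supernatant are given with and without it.

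The family was far more abundant with IFNβ than without it. The 6 members together took between 0.00178% and 0.00326% of the counts in untreated control libraries and between 0.00205% and 0.0338% with eGFP supernatant. With Ifnb1eGFP supernatant they took between 0.635% and 0.803%, and with rIFNβ between 0.694% and 0.740%. Every one of the 6 IFNβ-exposed libraries thus held at least 18.8 times the family share of the highest unexposed library. Because the samples are bulk RNA, a change in the number of responding cells and a change in RNA per cell cannot be told apart.

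Ifit2 is the member that can bind RNA as a dimer and, in the mouse, protects neurons against several viruses. It stood at 13.0, 12.4 and 7.64 CPM in the untreated control libraries, replicates 1 to 3 in order. With eGFP supernatant it stood at 21.1, 138.6 and 8.38 CPM. It reached 2488, 1998 and 2135 CPM with Ifnb1eGFP supernatant and 2209, 2127 and 2164 CPM with rIFNβ. The exposed libraries lay together, 14.4 times or more above the highest unexposed library, and the 2 sources of IFNβ overlapped.

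Ifit3, whose human counterpart stabilizes IFIT1 on its RNA target, had the highest mean TPM, a level per length, of the family in all 4 conditions. It was at 10.5, 9.03 and 5.08 CPM in untreated control and at 15.9, 125.1 and 7.05 CPM with eGFP supernatant. It reached 2901, 2445 and 2644 CPM with Ifnb1eGFP supernatant and 2576, 2541 and 2661 CPM with rIFNβ. The second eGFP library again set the top of the unexposed range, and the exposed libraries lay 19.5 times or more above it. Its near-copy Ifit3b was at 1.37, 1.07 and 0.593 CPM in untreated control, at 2.53, 17.0 and 0.876 CPM with eGFP supernatant, at 909, 721 and 743 CPM with Ifnb1eGFP supernatant and at 854, 795 and 798 CPM with rIFNβ. The lowest exposed library was 42.3 times the highest unexposed one.

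Ifit1, the cap-binding member, was at 6.98, 5.41 and 3.70 CPM in untreated control and at 10.5, 57.5 and 3.23 CPM with eGFP supernatant. It was at 767, 637 and 650.4 CPM with Ifnb1eGFP supernatant and at 772, 694 and 665 CPM with rIFNβ. Ifit1bl1, one of its mouse paralogs, was near the limit of detection without IFNβ, at 0.413, 0.554 and 0.426 CPM in untreated control, which is 13.0 to 18.9 counts a library. With eGFP supernatant it was at 1.52, 6.06 and 0.467 CPM. It was at 907, 659 and 750.0 CPM with Ifnb1eGFP supernatant and at 974, 816 and 826 CPM with rIFNβ. Its groups with and without IFNβ lay furthest apart of the family, by a factor of 109 between the nearest libraries, and for Ifit1 that factor was 11.1.

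Ifit1bl2, the other paralog, stayed rare in every condition. It was at 0.366, 0.0635 and 0.277 CPM in untreated control, where 1 library held only 2.17 counts, and at 0.476, 0.981 and 0.191 CPM with eGFP supernatant. It was at 5.42, 4.95 and 4.88 CPM with Ifnb1eGFP supernatant and at 5.08, 5.26 and 4.79 CPM with rIFNβ. Its groups with and without IFNβ did not overlap either, by a factor of 4.88 between the nearest libraries.

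**Figure D1:**
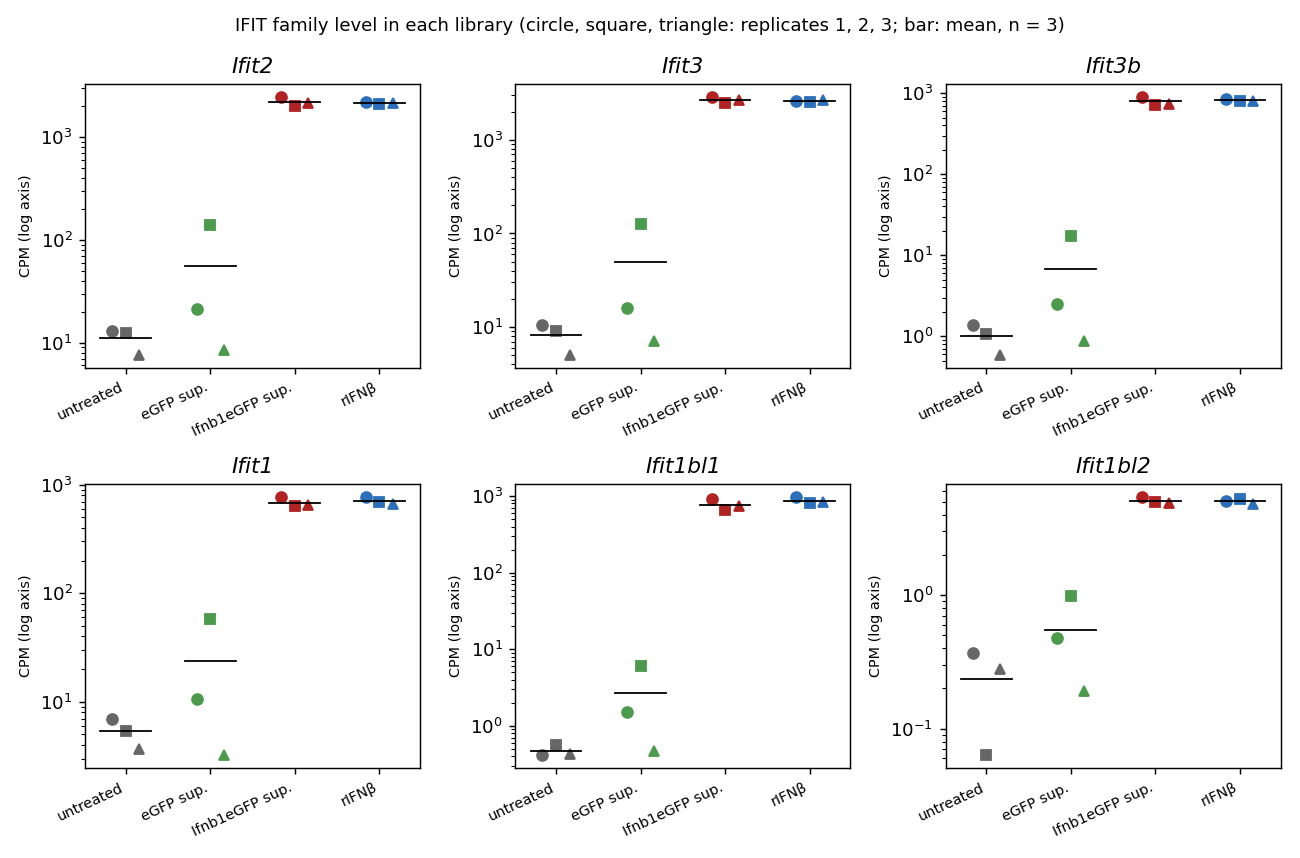
Level of each IFIT member in the 12 libraries, in CPM on a log axis, by condition, with 1 symbol per library and a bar at the mean of 3. In each panel the 6 IFNβ-exposed libraries sit together at the top, and the square of eGFP supernatant (replicate 2, 138.6 CPM for Ifit2) lies above the other unexposed libraries.

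Ifnb1eGFP supernatant was compared with eGFP supernatant to ask what IFNβ released by tumor cells adds to the other contents of the supernatant. All 6 members rose (edgeR's quasi-likelihood test, p adjusted over the 15033 genes by the Benjamini-Hochberg method), against 30.1% of all genes that were higher at the threshold of 0.05. They also met the stricter rule of a log2 fold change of 2 or more and an adjusted p no larger than 0.01, which 2.77% of all genes met in this direction. Their groups did not overlap, as was the case for 32.3% of all genes in this direction. Ifit1bl1 changed most, with a log2 fold change of 8.16 ± 0.58 (SE, n = 3 libraries per condition, adjusted p = 3.79e-07), the twelfth largest rise of all genes, or 285-fold with a 95% confidence interval of 117-fold to 694-fold. Ifit3b followed with 6.85 ± 0.77, Ifit3 with 5.75 ± 0.89, Ifit2 with 5.30 ± 0.84 and Ifit1 with 4.85 ± 0.77 (adjusted p between 1.61e-05 and 0.000246). Ifit1bl2 changed least, by 3.19 ± 0.40 (adjusted p = 3.65e-05). Over the 15033 genes the median was 0.03.

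rIFNβ was compared with untreated control to ask what IFNβ does alone. The 6 members rose here too, beside 30.7% of all genes that were higher at the threshold of 0.05. They also met the stricter rule, which 2.99% of all genes met, and their groups did not overlap, as for 36.4% of all genes. Ifit1bl1 rose by 10.87 ± 0.70 on the log2 scale (SE, edgeR adjusted p = 1.4e-07), or 1867-fold with an interval of 643-fold to 5419.9-fold, which was the second largest rise among the 15033 genes. Ifit3b rose by 9.69 ± 0.93 (adjusted p = 3.89e-06), the sixth largest rise. Ifit3 rose by 8.31 ± 1.02, Ifit2 by 7.63 ± 0.94 and Ifit1 by 7.07 ± 0.88 (adjusted p between 2.92e-05 and 3.34e-05). Ifit1bl2 rose by 4.37 ± 0.46 (adjusted p = 8.42e-06). The 6 members thus stood in the same order of change in both comparisons, which share no libraries. They do share one estimate of the spread over all 12 libraries, the eGFP libraries included. When only the 6 libraries compared were fitted, Ifit1bl1 rose by 10.83 ± 0.13 with rIFNβ (1477-fold to 2255-fold) and Ifit3 by 8.29 ± 0.23 (SE). For Ifnb1eGFP against eGFP supernatant such a fit gave Ifit1bl1 a wider interval, from 74.5-fold to 1092-fold.

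**Figure D2:**
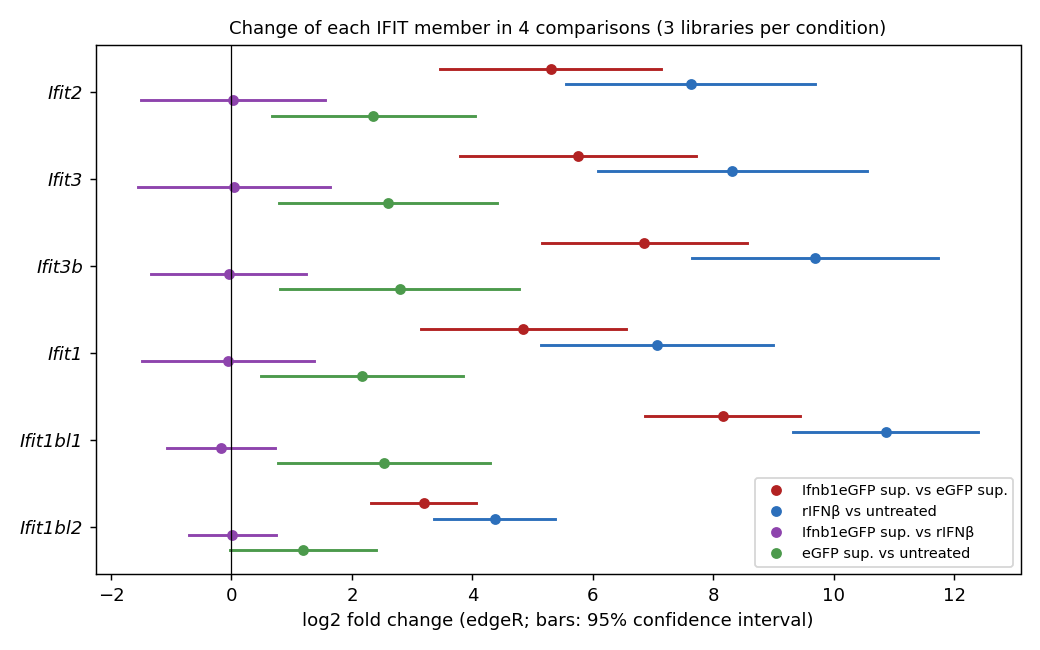
Log2 fold change of each IFIT member in 4 comparisons from the edgeR fit over 12 libraries, with 95% confidence intervals as bars. The red and blue points (IFNβ against its own control) lie between 3.19 and 10.87, and the purple points (both sources of IFNβ against each other) lie within 0.18 of 0.

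Ifnb1eGFP supernatant was set against rIFNβ to ask whether the source of IFNβ matters. By edgeR's quasi-likelihood test 0 of 6 members differed, against 0.16% of all genes called in either direction, and 0 members had an unadjusted p under 0.05. The log2 differences lay between -0.18 for Ifit1bl1 and 0.04 for Ifit3, with adjusted p between 0.899 and 0.993. The libraries of both conditions overlapped for 6 of 6 members, while 12.8% of all genes did not overlap in this comparison. Between libraries of the same number, Ifit1bl1 and Ifit1 were lower with Ifnb1eGFP supernatant in 3 of 3 pairs, and the other members had pairs in both directions. As a share of the family TPM, Ifit1bl1 took 15.2% to 16.9% with Ifnb1eGFP supernatant and 17.1% to 19.4% with rIFNβ, and Ifit2 17.5% to 17.7% and 16.8% to 17.25%, without overlap. These differences in share between the sources were not tested. The confidence intervals from the fit over all libraries were wide, from 0.340-fold to 3.10-fold for Ifit3, and without the second eGFP library this interval ran from 0.706-fold to 1.5-fold. When only the 6 libraries compared were fitted, the widest intervals were those of Ifit1bl1, 0.723-fold to 1.10-fold, and Ifit1bl2, 0.868-fold to 1.19-fold, and the interval of Ifit3 ran from 0.916-fold to 1.17-fold. A p that misses the threshold does not show equal levels.

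Supernatant without induced Ifnb1 was compared with untreated control. Here edgeR's quasi-likelihood test called 0 of 6 members, against 0.299% of all genes in either direction, although 5 of 6 had an unadjusted p under 0.05, as 1203 of all 15033 genes (8.0%) did. The log2 differences ran from 1.19 ± 0.55 for Ifit1bl2 to 2.80 ± 0.90 for Ifit3b (SE), with adjusted p from 0.337 to 0.634. The groups overlapped for 6 of 6 members, while 15.5% of all genes did not overlap. DESeq2 gave an adjusted p to 4 of 6 members (not to Ifit1 and Ifit3b). It called 1 of these 4, Ifit1bl1, with 2.53 ± 0.68 and an adjusted p of 0.0176, beside 204 of all 15033 genes.

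These differences rested on the second eGFP library. It exceeded the mean of the other 2 eGFP libraries by 10.9-fold for Ifit3, 10.0-fold for Ifit3b, 9.40-fold for Ifit2, 8.36-fold for Ifit1, 6.11-fold for Ifit1bl1 and 2.94-fold for Ifit1bl2. It still held only 6.28% of the mean Ifit2 level of Ifnb1eGFP supernatant and 0.785% of that of Ifit1bl1. The first eGFP library was higher than the untreated mean by 1.92-fold for Ifit2 and 3.26-fold for Ifit1bl1, and the third lay inside or near the untreated range. Without the second library the log2 difference of eGFP supernatant from untreated control was 0.43 ± 0.32 for Ifit2, 0.50 ± 0.32 for Ifit3 and 1.10 ± 0.48 for Ifit1bl1 (edgeR adjusted p between 0.847 and 1 over the 6 members).

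Without the same library the rise with Ifnb1eGFP over eGFP supernatant became larger, 7.22 ± 0.41 for Ifit2, 7.86 ± 0.41 for Ifit3 and 9.59 ± 0.32 for Ifit1bl1, and the test called 6 of 6 members again. The second eGFP library had 41958862 counts and 0.737 CPM of melanoma markers, the highest of the 3 eGFP libraries (0.414 to 0.737 CPM) and within the 0.730 to 0.804 CPM of untreated control. Its fibroblast markers summed to 27.6 CPM, the lowest of the 12 libraries, and its macrophage markers to 17815 CPM, the lowest of the 3 eGFP libraries. The part of these differences in its IFIT level was not tested.

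**Figure D3:**
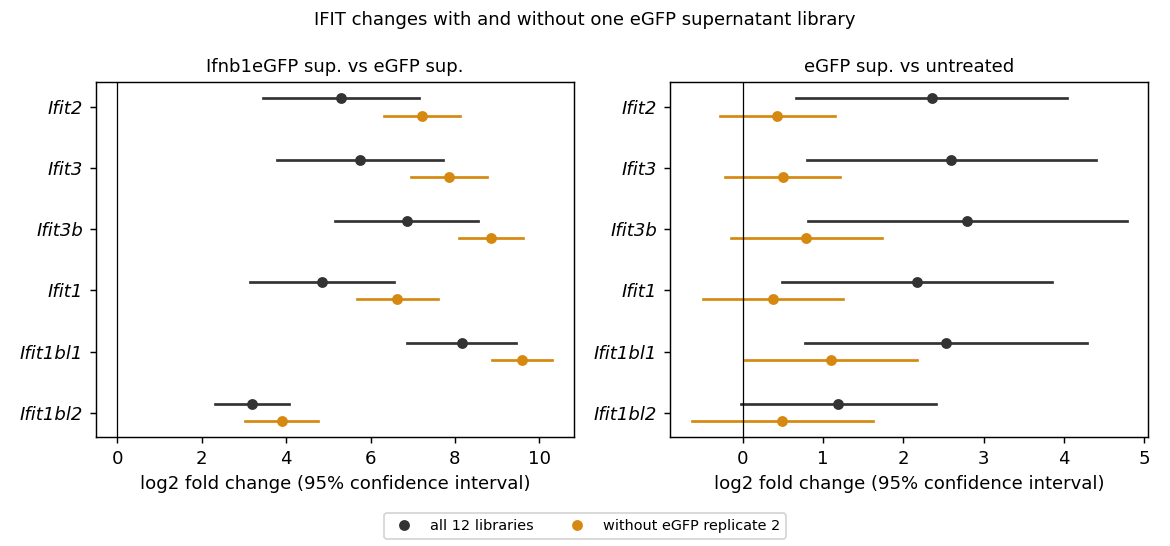
Log2 fold change with 95% confidence interval of the 6 members for Ifnb1eGFP against eGFP supernatant (left) and eGFP supernatant against untreated control (right), with 12 libraries (black) and without eGFP replicate 2 (orange). For Ifit2 the left value moves from 5.30 to 7.22 and the right value from 2.36 to 0.43.

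The interaction asks whether IFNβ changed the members to a different degree in supernatant and in plain medium. The log2 difference between the comparisons was negative for every member, from -1.18 ± 0.64 for Ifit1bl2 to -2.84 ± 1.09 for Ifit3b (SE). By definition it equals the difference between the sources of IFNβ minus that between eGFP supernatant and untreated control. For Ifit3b these were -0.04 and 2.80, so the value mostly restates the higher level with eGFP supernatant. edgeR's quasi-likelihood test called 0 of 6 members (adjusted p = 0.926 for each), as it called 0% of all genes, while 5 of 6 had an unadjusted p under 0.05, as 661 of all genes (4.4%) did. Without the second eGFP library the values lay between -0.41 ± 0.41 for Ifit2 and -1.27 ± 0.51 for Ifit1bl1.

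Levels of different genes were set side by side per length, as TPM, in which counts are divided by the length of the union of annotated exons and then scaled to a library total of 1000000. With Ifnb1eGFP supernatant Ifit3 led with 3925 ± 442 TPM (SD, n = 3), followed by Ifit3b with 1645 ± 252, Ifit2 with 1587 ± 221 and Ifit1bl1 with 1452 ± 273 TPM. The ranges of these last 3 overlapped between libraries, while within each of the 3 libraries they stood in this order. The order depends on the length used: with the canonical transcript length Ifit2 (1192 ± 163 TPM) came before Ifit3b (959.9 ± 144 TPM). Ifit1 came next with 391.6 ± 49.8 TPM and Ifit1bl2 last with 6.11 ± 0.48 TPM. With rIFNβ the order began in the same way, with Ifit3 at 3789 ± 137 TPM and Ifit3b at 1681 ± 74, and Ifit1bl1 at 1623 ± 169 and Ifit2 at 1544 ± 43 TPM followed, with Ifit1bl1 above Ifit2 in 2 of 3 libraries. In untreated control the order was different, with Ifit3 at 11.5 ± 4.0, Ifit2 at 7.53 ± 2.02, Ifit1 at 2.92 ± 0.91, Ifit3b at 2.00 ± 0.79, Ifit1bl1 at 0.829 ± 0.132 and Ifit1bl2 at 0.271 ± 0.18 TPM. The ranges of Ifit3 and Ifit2 overlapped there, as did those of Ifit1 and Ifit3b, but the order held in each of the 3 libraries. With eGFP supernatant the spread exceeded the mean for 5 of 6 members, with Ifit3 at 67.3 ± 89.4, Ifit2 at 37.3 ± 47.6, Ifit3b at 13.1 ± 17.0, Ifit1 at 12.6 ± 15.5, Ifit1bl1 at 4.66 ± 5.14 and Ifit1bl2 at 0.614 ± 0.441 TPM. Within these libraries Ifit3b was above Ifit1 in 1 of 3, and the other neighbors kept this order in 3 of 3. In the exposed libraries Ifit3 ranked between 24th and 29th of all genes by TPM.

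The make-up of the family changed with IFNβ. The share of each member in the family TPM was compared between the 6 exposed and 6 unexposed libraries by an exact two-sided permutation test that exchanged labels only within the same medium (400 relabellings, smallest possible p = 0.005). Ifit1bl1 took 2.35% to 5.34% of the family in unexposed and 15.2% to 19.4% in exposed libraries, a rise of the mean by 13.1 percentage points (p = 0.005, exact test). Ifit3b went from between 7.06% and 9.87% to between 17.6% and 18.8%, a rise by 9.80 points (p = 0.005, exact test).

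Ifit2 fell in share from between 27.3% and 31.4% to between 16.8% and 17.7%, and Ifit1 from between 8.72% and 12.1% to between 4.19% and 4.68% (p = 0.005 each, exact test). Ifit1bl2 went from between 0.267% and 1.91% to between 0.0634% and 0.0731% (p = 0.005, exact test). Adjusted over the 6 shares tested, these p-values were 0.006. When labels were exchanged only between same-numbered libraries of a medium (64 relabellings), 5 of the 6 shares were called. The lowest adjusted p was then 0.0375 (exact permutation). The share of Ifit3 was 46.7% on average in unexposed and 42.8% in exposed libraries (p = 0.03 before and after adjustment, exact test), with overlapping ranges. Its direction turned when levels were not divided by length, and the rise was then called as well (adjusted p = 0.005, exact test). Within each medium the shares moved the same way: that of Ifit1bl1 by 14.4 points between untreated control and rIFNβ and by 11.8 points between the supernatants. The second eGFP library had 3.12% for Ifit1bl1, the second lowest of the 6 unexposed libraries, and at 27.3% for Ifit2 and 50.5% for Ifit3 it set the lowest and highest unexposed values.

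**Figure D4:**
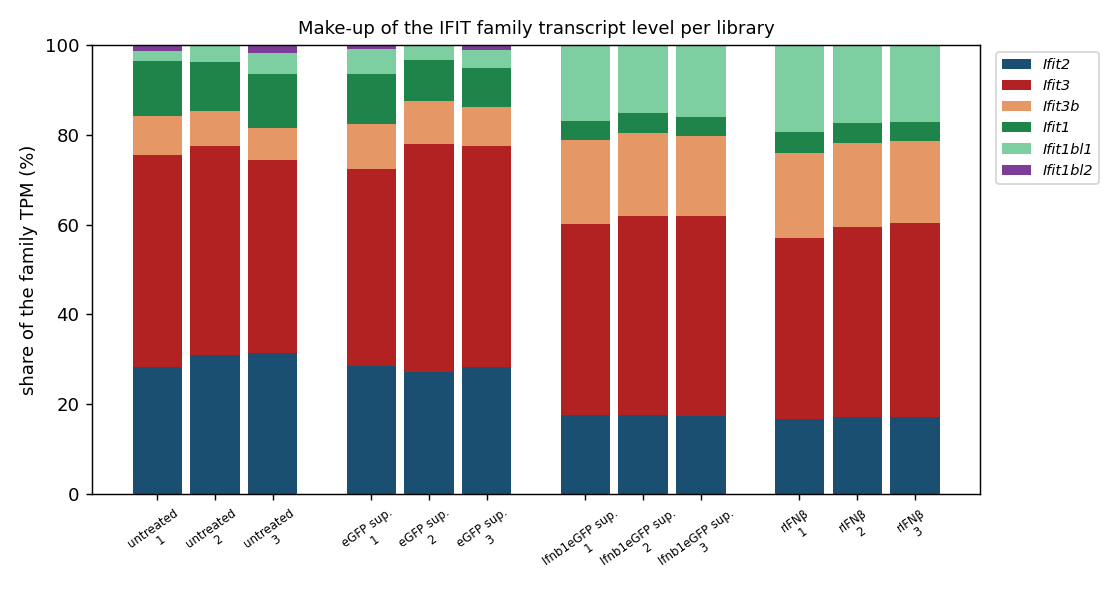
Share of each member in the summed TPM of the family, in percent, as stacked bars for each of the 12 libraries. Ifit1bl1 and Ifit3b widen and Ifit2 and Ifit1 narrow from the 6 unexposed libraries on the left to the 6 exposed ones on the right, with Ifit1bl1 between 2.35% and 5.34% on the left.

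Ratios of the same counts within a library describe the shift in shares in another form and are no separate result. Shares of one library add up to the whole, so a rise of some members goes with a fall of others. Ifit1bl1 had 0.0592 to 0.145 counts for each count of Ifit1 in unexposed libraries and 1.03 to 1.26 in exposed ones. Ifit3b had 0.117 to 0.159 counts for each count of Ifit3 without and 0.281 to 0.331 with IFNβ. Ifit3 had 0.665 to 0.903 counts for each count of Ifit2 without and 1.17 to 1.24 with IFNβ.

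The counts of near-copies carry a limit. RSEM divides a read that fits several genes, and fractions within the family added up to whole counts (within 0.02) for Ifit3 with Ifit3b and for Ifit1 with Ifit1bl1 and Ifit1bl2 in 12 of 12 libraries, while Ifit2 was whole by itself in 12 of 12. The division of reads within these groups, above all between Ifit3 and Ifit3b, is uncertain. Ifit1bl2 carries this limit too: 5.29% of its 50-base stretches occur in Ifit1 transcripts and 4.02% in Ifit1bl1 transcripts. In exposed libraries it held at most 234 counts, beside at least 25664 for Ifit1. What part reads of its paralogs had in its rise was not tested. With each group summed, Ifit3 and Ifit3b together rose by 5.94 ± 0.91 on the log2 scale with Ifnb1eGFP against eGFP supernatant, and Ifit1, Ifit1bl1 and Ifit1bl2 together by 5.76 ± 0.80 (SE, edgeR adjusted p = 0.000172 and 8.2e-05). The summed Ifit1 group took 12.5% to 18.6% of the family TPM without and 19.7% to 24.1% with IFNβ (p = 0.005, exact test). Ifit3 and Ifit3b together took 49.96% to 60.2% without and 59.0% to 62.6% with IFNβ, overlapping ranges with a difference of the means of 5.93 points (p = 0.005, exact test).

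Genes on either side of the cluster moved far less. Lipa, the lysosomal acid lipase next to Ifit2, was high throughout, with 2392 ± 128 CPM under eGFP and 2728 ± 229 CPM under Ifnb1eGFP supernatant (SD, n = 3), a log2 difference of 0.19 (edgeR adjusted p = 0.0287), and did not pass with rIFNβ against untreated control (0.11, adjusted p = 0.175). Ch25h, which makes 25-hydroxycholesterol, stayed between 0.125 and 0.367 CPM on average and did not pass the test (adjusted p = 0.282). On the other side Pank1, a pantothenate kinase of coenzyme A synthesis, fell by 0.54 on the log2 scale (adjusted p = 4.59e-05), from 7.83 ± 0.47 to 5.37 ± 0.07 CPM. Slc16a12, a monocarboxylate transporter family member, had 19 counts over all libraries and was not tested. Within the span the pseudogene Cnn2-ps had 1 count, and 2 further annotated genes, Gm59324 and ENSMUSG00000144279, were not rows of the matrix.

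**Figure D5:**
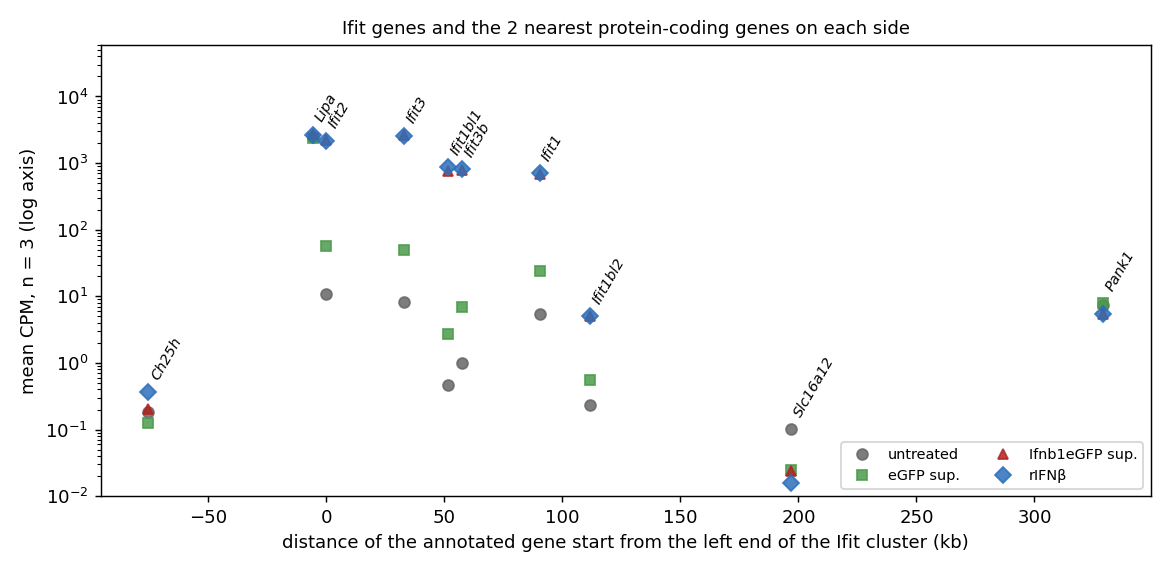
Mean CPM (n = 3, log axis) of the 6 Ifit genes and their 2 nearest protein-coding neighbours on each side, against the distance of each gene's GENCODE M39 start from the left end of the cluster in kb. For the Ifit genes the exposed conditions lie far above the unexposed ones and near each other. For Lipa all 4 conditions lie close together, at 2392 CPM with eGFP and 2728 CPM with Ifnb1eGFP supernatant.

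Genes of the signaling pathway were followed beside the family. Of 13 genes for ISGF3 signaling and its feedback, 9 rose, 1 fell and 3 did not pass the test with Ifnb1eGFP against eGFP supernatant, with a median log2 fold change of 1.71 against 0.03 for all genes. The 9 that rose were 69.2% of the list, beside the 30.1% of all genes. With rIFNβ 10 rose (76.9%, beside 30.7% of all genes), 2 fell and 1 did not pass. Stat2 rose by 3.08 ± 0.30 on the log2 scale and Irf9 by 1.5 ± 0.14, both of which are parts of ISGF3 (SE, edgeR adjusted p = 4.93e-06 and 3.44e-06). Irf7, which amplifies interferon production, rose by 6.15 ± 0.64, from 20.9 ± 21.1 to 1494 ± 184 CPM (SD). Irf1 rose by 1.71 ± 0.15. The second eGFP library weighed on these values as well, and without it Irf7 rose by 7.40 ± 0.35, Stat2 by 3.63 ± 0.15 and Irf9 by 1.73 ± 0.08.

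At the receptor the subunits went opposite ways. Ifnar1 fell by 0.55 ± 0.04 on the log2 scale and Ifnar2 rose by 0.57 ± 0.07 (SE, edgeR adjusted p = 2.93e-07 and 2.21e-05). Jak1 (0.00 ± 0.05) and Tyk2 (0.19 ± 0.10) did not pass the test with Ifnb1eGFP supernatant, while with rIFNβ Jak1 fell by 0.15 and Tyk2 rose by 0.41 (adjusted p = 0.0326 and 0.00329). Among inhibitors of the pathway, Usp18 rose by 4.30 ± 0.53 and Socs1 by 2.04 ± 0.33, from 0.357 to 1.48 CPM, while Socs3 was at 0.66 ± 0.32 (adjusted p = 0.104, or 0.00325 with the replicate block). Isg15, the ubiquitin-like protein that Usp18 removes, rose by 4.66 ± 0.59. Without the second eGFP library Usp18 rose by 5.51 ± 0.24 and Isg15 by 6.04 ± 0.22. In the fit over all 12 libraries, all 6 members had larger fold changes than Stat2 and Irf9 with Ifnb1eGFP against eGFP supernatant. Ifit1bl2 (3.19) lay close to Stat2 (3.08), and Irf7 (6.15) lay above Ifit1, Ifit1bl2, Ifit2 and Ifit3. The difference between genes was not tested.

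Of 23 genes of nucleic acid sensing, its signaling and antiviral effectors, 21 rose with Ifnb1eGFP supernatant (91.3%, beside 30.1% of all genes). Their list had a median log2 fold change of 2.61. Sting1 fell (-0.18, edgeR adjusted p = 0.0444, or 0.109 without the second eGFP library) and Irf3 did not pass. With rIFNβ 21 rose (91.3%, beside 30.7% of all genes), 0 fell and Irf3 and Sting1 did not pass. Sting1, the adaptor for cytosolic DNA sensing, is named here after its values were seen. Tlr3, the endosomal receptor of double-stranded RNA, rose by 2.50 ± 0.09, and the single-stranded RNA receptors Tlr8 and Tlr7 by 1.94 ± 0.10 and 1.74 ± 0.10 (SE, edgeR adjusted p at most 7.93e-08). Irf3, the transcription factor downstream of the sensors, was at 0.01 ± 0.17 (adjusted p = 0.948).

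The cap methylation that marks host RNA as self was followed through 4 genes. Cmtr1, the methyltransferase of the first nucleotide that makes the 2′-O mark, rose by 0.91 ± 0.06 on the log2 scale with Ifnb1eGFP and by 0.98 ± 0.06 with rIFNβ (SE, edgeR adjusted p = 3.47e-07 and 1.85e-07). It was at 81.5 ± 8.53 CPM with eGFP and 154 ± 1.68 CPM with Ifnb1eGFP supernatant (SD, n = 3). Cmtr2, which acts on the second nucleotide, was close to the threshold, at 0.21 ± 0.08 (adjusted p = 0.0379, or 0.139 without the second eGFP library) with Ifnb1eGFP and 0.06 ± 0.08 (adjusted p = 0.544) with rIFNβ. The guanine N7 methyltransferase Rnmt and its activator Ramac lay at -0.13 and 0.03 with Ifnb1eGFP (adjusted p = 0.0875 and 0.747), and Rnmt fell by 0.15 with rIFNβ (adjusted p = 0.0488), a call lost with the replicate block (adjusted p = 0.057) and without the second eGFP library (adjusted p = 0.0588).

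The eIF3 subunits, on which IFIT proteins act, moved little. Of 14 genes, 4 rose (Eif3d, Eif3e, Eif3h and Eif3m), 5 fell (Eif3a, Eif3b, Eif3i, Eif3k and Eif3l) and 5 did not pass with Ifnb1eGFP against eGFP supernatant, with log2 fold changes from -0.30 to 0.39. The 4 that rose were 28.6% of the list, near the 30.1% of all genes. Without the second eGFP library 3 fell. With rIFNβ 5 rose (35.7%, beside 30.7% of all genes), 5 fell and 4 did not pass. In either direction 55.1% of all genes were called with Ifnb1eGFP against eGFP supernatant and 55.3% with rIFNβ against untreated control. Eif3e rose by 0.39 ± 0.05 and Eif3h by 0.28 ± 0.04, while Eif3l fell by 0.24 ± 0.04 (SE, edgeR adjusted p between 2.21e-05 and 0.000116). Eif3j1 was at -0.01 ± 0.07 (adjusted p = 0.879).

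The genes most like the family were found by Pearson's r of their log2 CPM with the mean standardized profile of the 6 members over the 12 libraries. Rsad2, an antiviral radical SAM enzyme, had r = 0.999 and Mx1, a dynamin-like antiviral GTPase, r = 0.9989. Usp18, Gbp5, a guanylate-binding protein, and Cmpk2, the neighbor of Rsad2, had r between 0.9986 and 0.9988. In eGFP replicates 1 to 3 Rsad2 was at 46.4, 228 and 20.3 CPM, and Cmpk2 at 20.8, 104 and 7.10 CPM. The genes were chosen by r over all 12 libraries, the second eGFP library included. Their high level in that library follows from this choice and is no separate observation. The libraries form an exposed and an unexposed cluster, so that r mainly reflects this split, and 90 genes outside the family exceeded 0.99.

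Within the exposed cluster the members tracked each other unevenly. Over the 6 exposed libraries r of log2 CPM was 0.94 between Ifit2 and Ifit3, 0.9363 between Ifit1 and Ifit3b and 0.4182 between Ifit1bl2 and Ifit3. All values of one library share its depth, and Ifit1bl2 had at most 234 counts. Between the more abundant members r was as low as 0.5413 (Ifit1 and Ifit3), and it was 0.7506 between Ifit3 and Ifit3b.

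Markers of cell types moved with IFNβ as well. The macrophage markers summed to between 14063 and 18394 CPM in unexposed and between 8515 and 9286 CPM in exposed libraries, and with Ifnb1eGFP against eGFP supernatant Adgre1, Cd68 and Mertk rose, Itgam and Lyz2 fell and Csf1r did not pass. The 5 M2-like markers summed to between 743 and 1023 CPM over all libraries, and of them Chil3 rose in both comparisons (0.77 with Ifnb1eGFP and 0.67 with rIFNβ), while Arg1, Mgl2, Mrc1 and Retnla did not pass. Arg1 was near the floor in all 4 conditions, with means between 0.261 and 0.662 CPM. The 5 neutrophil markers summed to 4.28 to 5.72 CPM without and 0.208 to 0.985 CPM with IFNβ, and the 4 dendritic cell markers to 1.22 to 1.71 and 0.273 to 0.438 CPM, with 0 genes of either list at 0 in the series. Of these only S100a8 and Zbtb46 passed the filter on low counts, and both fell in both comparisons. The 4 fibroblast markers summed to between 27.6 and 77.6 CPM, and with Ifnb1eGFP against eGFP supernatant Dcn (1.80) and Pdgfra (1.67) rose, Col1a1 (-1.03) fell and Col1a2 did not pass, with the same calls for rIFNβ. The part of these marker changes in the IFIT levels was not tested.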

How the data were processed

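Total RNA libraries (TruSeq Stranded Total RNA) of 12 BMDM cultures, 3 per condition, were sequenced. The authors deposited expected counts per gene from RSEM 1.3.3 per the labels; the submitters' processing notes join GRCm39 and mm10 as build, and the strand setting of counting is not given in the sources used here. Of the deposited expected counts 12% were not whole, and all were rounded. Libraries totalled between 31526034 and 45348457 counts, and columns without a sample numbered 0. Conditions came from the labels.

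Genes were filtered with filterByExpr (15033 kept), scaled by TMM and tested with edgeR 4.0.16 in R 4.3.3 (quasi-likelihood test, all 12 libraries, Benjamini-Hochberg adjustment, threshold 0.05). The SE is the absolute log2 fold change divided by the square root of F. TPM used GENCODE M39 lengths, which matched 56017 of 56748 genes. Family shares were compared by exact permutation within medium, since 3 against 3 libraries cannot go below p = 0.1. The fit and the share test were tested on simulated data.

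Members and gene lists were chosen with earlier results of these data known. Named were all members, all ISGF3 and cap methylation genes, the 3 smallest and the single largest adjusted p of the sensor and eIF3 lists, and the 5 genes most like the family. One gene that this rule names is not reported here. Alternatives were DESeq2 1.42.0, other scaling, no filter, fewer libraries, summed copies, a replicate block and other lengths, the canonical transcript length being chosen after seeing the data. No source says what a replicate number stands for, so p-values measure the spread between these libraries. Deviations of same-numbered Ifnb1eGFP and rIFNβ libraries correlated in 3 of 3 pairs (r between 0.167 and 0.246), which met the criterion for pairing of 0.1.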

Additional observations from a re-analysis of the deposited data

How the results depend on the processing

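The calls of the 6 members in both comparisons of IFNβ with its control were kept by edgeR under every alternative run. DESeq2 gave an adjusted p to 4 of 6 members (not to Ifit1 and Ifit3b) and called 4 of 4 in both. For eGFP supernatant against untreated control DESeq2 called 1 of 4 members (Ifit1bl1, 2.53). Between the sources of IFNβ the sign of 5 members was not stable, while that of Ifit1bl1 stayed negative (-0.30 to -0.073 with 1 library left out): with near-copies summed it was -0.12 for the group of Ifit1bl2 and 0.019 for that of Ifit3b, and leaving out 1 library at a time gave -0.14 to 0.011 for Ifit1, -0.028 to 0.048 for Ifit1bl2, -0.064 to 0.094 for Ifit2, -0.023 to 0.097 for Ifit3 and -0.15 to 0.019 for Ifit3b, with 0 calls. The share of Ifit3 differed by -3.88 points (adjusted p = 0.03, exact permutation). With CPM not divided by length it differed by 4.45 points (adjusted p = 0.005, exact permutation), so both directions were called. It differed by -2.48 (adjusted p = 0.085, exact permutation) with canonical transcript lengths and by -3.54 (0.055) without the first Ifnb1eGFP library. The cause was not tested.

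With the replicate block no member's edgeR call changed (Ifit2, Ifnb1eGFP against eGFP supernatant, 5.80, adjusted p = 0.000202), but the share of Ifit3 no longer passed (adjusted p = 0.0625, exact permutation), and called genes between the sources of IFNβ went from 24 to 48. Over all conditions, 13 of 18 same-numbered pairs correlated above 0.1 (0.058 to 0.252).

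Over all genes, calls between the sources of IFNβ numbered 24, against 117 with DESeq2, 41 without the filter, 2 with only these conditions fitted and 4 to 1051 with 1 library left out (1051 without the second Ifnb1eGFP library). For eGFP supernatant against untreated control they numbered 45, against 204 with DESeq2, 122 with the block, 75 without the filter, 22 with only these conditions and 16 to 76 with 1 library left out. The interaction had 0, against 12 with DESeq2 and 1 without the filter. In cap methylation genes the count of rises with Ifnb1eGFP went from 2 to 1 with DESeq2, with RLE factors and without the second eGFP library, and the calls with rIFNβ from 2 to 1 with the replicate block and without that library. Without it eIF3 falls with Ifnb1eGFP went from 5 to 3, counts chosen after seeing the data. Depth limits Ifit1bl2 most, with 2.17 to 11.7 counts in untreated control.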
